A study of Brassica rapa with 38 samples.

Results

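The most abundant leaf transcripts of *Brassica rapa* were followed across monoploid, diploid and autotetraploid plants. A gene model was included when its mean TPM (a transcript level per gene length, scaled so that every library has the same sum) over all 8 RNA-seq libraries was above 500. A stretch of chromosome A06 from 30174853 to 30514055, in the coordinates of the deposited tables, was left out. It holds 126 gene models, 21 of them above this level. In total, 241 of 46479 gene models met the rule, and all 241 were among the 25652 gene models tested. The members were thus chosen by their level over all libraries together, so their high level is not a result. Just inside the threshold were BRA05G0046382 with a mean of 502.4 TPM and BRA05G0043375 with 501.6 TPM, and just outside it were BRA07G006686 with 499.0 TPM and BRA08G008987 with 498.0 TPM.

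The plants shared the genome of inbred line 85-1. The monoploid came from microspore culture, the diploid from colchicine treatment of the monoploid, and the autotetraploid from colchicine treatment of the diploid, and all were propagated by tissue culture before transplanting to the greenhouse. The second or the third inner young leaf was taken at the heading transition, 60 days after sowing, from 3 monoploid, 2 diploid and 3 autotetraploid samples. Each ploidy level therefore stands for 1 lineage of 1 genotype, and the 2 levels with doubled genomes also share the colchicine treatment that the monoploid did not receive, so ploidy and treatment cannot be told apart. How many plants made up each RNA sample is not given in the sources used here, so p-values measure the spread between these samples.

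In green leaves, transcript pools are usually dominated by a small set of genes. Proteins of the photosynthetic light reactions, the small subunit of the carbon-fixing enzyme Rubisco, and ribosomal proteins are among the best known products of such genes. Colchicine blocks the mitotic spindle, so a treated cell can keep both copies of its replicated chromosomes. The gene models here carry identifiers only, and the identifiers matched 0 entries of the RefSeq gene table. No name or role is therefore given to any of them, and the leaf label was not checked against marker genes.

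The depth of the libraries, computed as coverage divided by FPKM, ranged from 5.86 Gb of aligned bases in diploid replicate 1 to 8.06 Gb in autotetraploid replicate 2. The A06 stretch took from 1.85 to 4.48% of all TPM in the diploid, from 4.95 to 6.36% in the autotetraploid and from 6.96 to 9.75% in the monoploid. Because TPM sums to a fixed total, a smaller stretch raises the values of all other genes. The median log2 change of all 25652 tested gene models was 0.25 from monoploid to diploid, 0.19 from monoploid to autotetraploid and -0.05 from diploid to autotetraploid. With TPM rescaled over gene models outside the members and the A06 stretch, these medians were 0.115, 0.0974 and -0.0135. The cause of the shifts was not tested, and changes of members are read beside the medians without rescaling.

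The 241 members took 22.8 to 26.9% of all TPM in the 8 libraries. Their share was 26.7, 24.2 and 26.9% in monoploid replicates 1, 2 and 3, 22.8 and 24.1% in diploid replicates 1 and 2, and 22.9, 23.0 and 23.7% in autotetraploid replicates 1, 2 and 3. All monoploid libraries lay above all others, though monoploid replicate 2 and diploid replicate 2 were close to each other. The group means were 25.9% ± 1.47 (SD, n = 3) in monoploid, 23.4% ± 0.91 (SD, n = 2) in diploid and 23.2% ± 0.44 (SD, n = 3) in autotetraploid. The difference from the monoploid was thus -2.51 percentage points in diploid and -2.77 percentage points in autotetraploid, while the autotetraploid differed from the diploid by -0.26 percentage points, less than the SD within either group. As a share of the TPM outside the A06 stretch, the difference between diploid and monoploid was -4.09 percentage points, and that between autotetraploid and diploid had the opposite sign, at 0.32. Shares over members chosen from these libraries were given no test.

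**Figure D1:**
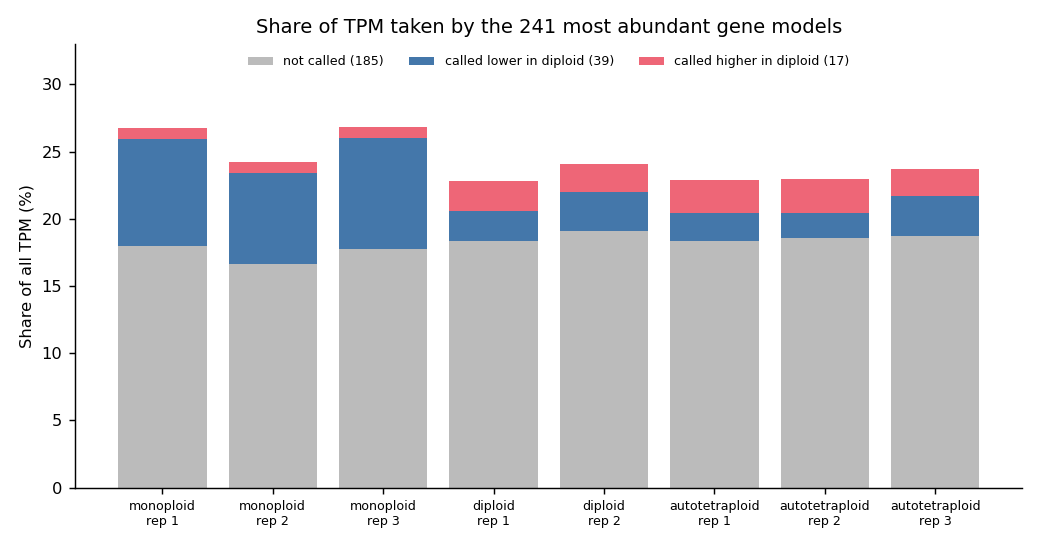
Share of all TPM, in percent, taken by the 241 most abundant gene models in each of the 8 libraries, as stacked bars split by the call between diploid and monoploid. The 39 gene models called lower in diploid (blue) take 6.82 to 8.25% in the monoploid libraries and at most 3.02% in the others. The 17 called higher (red) take more outside the monoploid, and the 185 not called (grey) lie between 16.6 and 19.1%. Blue and red were chosen by their difference between monoploid and diploid in these libraries, so those directions follow from the choice.

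The net difference was made of larger gains and losses that partly cancelled. From monoploid to diploid, 99 members had a lower group mean, with a summed change of -7.26% of all TPM, while 142 had a higher mean, with a sum of 4.75%. The losses were the more concentrated, since 12 members made up at least 50% of the loss but 28 were needed for the same part of the gain. From monoploid to autotetraploid, 107 members had a lower mean, with a sum of -7.59%, and 134 a higher mean, with a sum of 4.82%. From diploid to autotetraploid the movement was smaller, at -1.59% over 173 members and 1.33% over 68 members. Here 5 members made up at least 50% of the gain.

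In the monoploid the pool was more concentrated in few gene models. With the A06 stretch left out of the ranking, the 100 highest gene models of each library took 19.1, 16.8 and 19.4% of all TPM in the monoploid, 15.0 and 15.7% in the diploid, and 15.3, 15.8 and 15.9% in the autotetraploid. The monoploid libraries were all above the others, which lay close together. To reach 25% of all TPM, 186, 236 and 184 gene models were needed in monoploid replicates 1, 2 and 3, but 270 and 252 in diploid and 266, 261 and 262 in autotetraploid. Monoploid replicate 2 stood between the other monoploid libraries and the rest. The next tier, 1434 gene models with a mean of 100 to 500 TPM, took 28.7% ± 0.47 (SD, n = 3) in monoploid, 31.3% ± 0.15 (SD, n = 2) in diploid and 30.2% ± 0.72 (SD, n = 3) in autotetraploid, so it moved the other way from the members.

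One gene model stood above all others in every library. BRA04G001209, on A04 from 17779068 to 17779872, had 30584, 20764 and 30072 TPM in monoploid, 20528 and 24343 TPM in diploid, and 20930, 24746 and 27435 TPM in autotetraploid. Monoploid replicate 2 was as low as the lowest diploid and autotetraploid libraries, and the 3 groups overlapped. Its level was between 3.39 and 4.58 times that of the second gene model of the same library outside the A06 stretch, and it alone took between 2.05 and 3.06% of all TPM. Its change on the scale of log2(TPM + 1) was -0.26 ± 0.36 (SE) from monoploid to diploid, with an adjusted p of 0.59 in limma with Benjamini-Hochberg adjustment over all tested gene models. From monoploid to autotetraploid it was -0.14 ± 0.32 (SE), with an adjusted p of 0.75.

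The gene models in second place changed with ploidy. BRA04G002628 was second in monoploid replicates 1 and 2, and BRA04G001202 in replicate 3. In the diploid and in autotetraploid replicate 2 the second place went to BRA01G0018096, and in autotetraploid replicates 1 and 3 to BRA01G0018687. BRA01G0018687 had 4008, 3479 and 4166 TPM in monoploid, 5489 and 4706 TPM in diploid, and 5862, 6118 and 6206 TPM in autotetraploid. These groups did not overlap and the autotetraploid libraries were the highest. In limma its change of 0.39 to the diploid had an adjusted p of 0.20, and its change of 0.65 to the autotetraploid an adjusted p of 0.032. BRA01G0018096 had 3284, 4140 and 3894 TPM in monoploid, 5605 and 5312 TPM in diploid, and 5149, 6243 and 5900 TPM in autotetraploid. Its monoploid libraries were below all others, while diploid and autotetraploid overlapped.

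**Figure D2:**
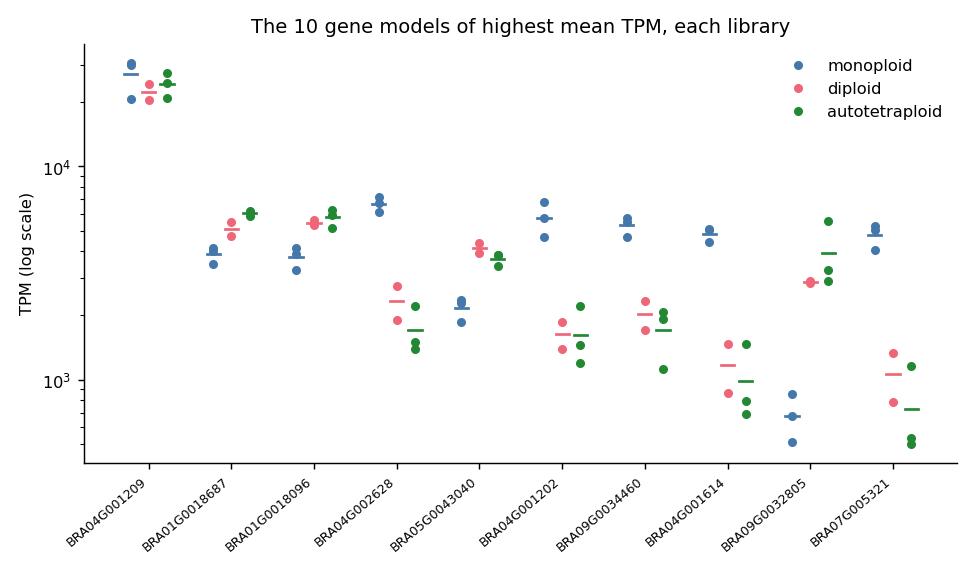
TPM (log scale) of the 10 gene models of highest mean TPM in each library, with 1 point per library, a horizontal line at each group mean, and colours for monoploid, diploid and autotetraploid. BRA04G001209 is the highest in every library, at 20528 to 30584 TPM, while 5 of the 10 (BRA04G002628, BRA04G001202, BRA09G0034460, BRA04G001614 and BRA07G005321) are lower in every diploid and autotetraploid library than in any monoploid library.

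The order of the members differed between monoploid and the others far more than between diploid and autotetraploid. Over the 241 members, Spearman's rho between libraries was 0.81 to 0.97 within monoploid, 0.87 within diploid and 0.73 to 0.84 within autotetraploid. Between diploid and autotetraploid libraries it was 0.73 to 0.91, as high as within the autotetraploid. Between monoploid and diploid it was 0.07 to 0.33, and between monoploid and autotetraploid -0.02 to 0.41. These values are a description across gene models, which are not independent replicates. They cover only the narrow range of levels above the threshold. Over all 25652 tested gene models rho was 0.90 to 0.92 between monoploid and diploid and 0.97 to 0.98 between diploid and autotetraploid. The rule also let in 31 members above 500 TPM by group mean in monoploid only, and 58 above it in diploid and autotetraploid only. Such members lower rho between monoploid and the others, and no rho is given here for the 137 members above 500 TPM at each level.

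**Figure D3:**
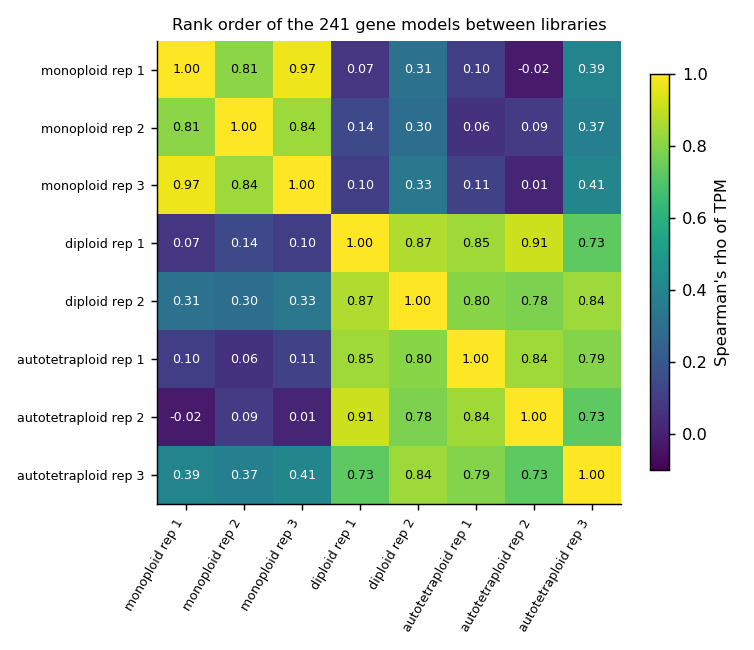
Spearman's rho of TPM over the 241 members for each pair of libraries, with the value printed in each cell and the colour scale at the right. The 3 monoploid libraries form one bright square and the 5 diploid and autotetraploid libraries another, and autotetraploid replicate 3 has the highest values of its group with the monoploid libraries, at 0.37 to 0.41.

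By group means, the 20 highest gene models of diploid and autotetraploid had 16 in common, those of monoploid and diploid 10, and those of monoploid and autotetraploid 7. The median member moved 92 places from monoploid to diploid and 15 places from diploid to autotetraploid, and 110 and 16 members, respectively, moved more than 100 places. BRA07G005321 went from rank 6 in monoploid to 48 in diploid and 94 in autotetraploid, and BRA03G0026056 from 14 to 399 and 706. In the other direction, BRA09G0032805 went from rank 137 to 6 and 4, and BRA06G0038137 from 65 to 5 and 7. All 50 of the highest gene models in each library outside the A06 stretch were members, which the rule makes likely because it used the same libraries. Of the 241 members, 137 had a group mean above 500 TPM at each ploidy level. In 58 the diploid and autotetraploid means were above it and the monoploid mean was not, and in 31 only the monoploid mean was. Such members, BRA03G0026056 among them, add by the rule to the places moved between monoploid and the other levels. The places moved by the 137 alone, or by other gene models, are not given here.

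Gene by gene, which direction was the more frequent from monoploid to diploid depended on the size of change required. With an adjusted p of at most 0.05 in limma and a change of at least 1 on the log2(TPM + 1) scale, 39 members (16.2%) were lower in diploid, beside 5.36% of all tested gene models. Those called higher were 17 members (7.05%), beside 4.87% of all tested gene models. By the adjusted p alone, 54 members (22.4%) were lower and 69 (28.6%) higher, beside 9.13 and 24.3% of all tested gene models. The median change of the members was 0.23, beside 0.25 over all tested gene models, so the middle of the set moved with the whole table while a part of it fell. In the next tier of 1434 gene models, 85 (5.93%) were called lower and 55 (3.84%) higher.

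A part of these counts depended on a single library or on scaling. Without diploid replicate 1, the library of lowest depth, 13 members were called lower and 13 higher, and 25 of the 56 called members were still called, with no change of sign. The split between 17 higher and 39 lower became 8 and 50 with median-ratio rescaling, and 26 and 29 after quantile normalization. The median change of all tested gene models moved as well, from 0.25 to 0.0125 and 0.0863. The shares of all tested gene models called under these 2 scalings are not given here. Members above 500 TPM at only some levels entered the set through the levels where they were high. Among the 137 members with a mean above 500 TPM at each level, 14 (10.2%) were called lower and 5 (3.65%) higher, beside the 5.36 and 4.87% of all tested gene models.

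Against the monoploid, the autotetraploid also had more members called lower than higher. Here 44 members (18.3%) were called lower, beside 6.01% of all tested gene models, and 14 (5.81%) higher, beside 5.56%. By the adjusted p alone, 70 members were lower and 70 higher (29.0% each), beside 12.1 and 26.2% of all tested gene models. Here too, members above 500 TPM at only some levels entered the set through the levels where they were high. Among the 137 members above 500 TPM at each level, 17 (12.4%) were called lower and 5 (3.65%) higher, beside 6.01 and 5.56% of all tested gene models. Both comparisons use the same monoploid libraries, so they are not separate evidence. Side by side, 37 members were called lower in both and 11 higher in both, 2 were lower and 6 higher in diploid alone, and 7 were lower and 3 higher in autotetraploid alone. These differences in calls between the comparisons were not tested as such. The same joint calls over all tested gene models are not given here, so the joint counts are not read as a trait of the members.

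Between diploid and autotetraploid no member was called in either direction by limma, beside 0.0195% of all tested gene models called higher and 0.0078% called lower. At an unadjusted p of at most 0.05 there were 11 members (4.56%), beside 5.41% of all tested gene models. The median change of the members was -0.10, beside -0.05. Without autotetraploid replicate 3, 1 member, BRA03G0028539, was called lower in autotetraploid, with a change of -1.51 and an adjusted p of 0.042.

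**Figure D4:**
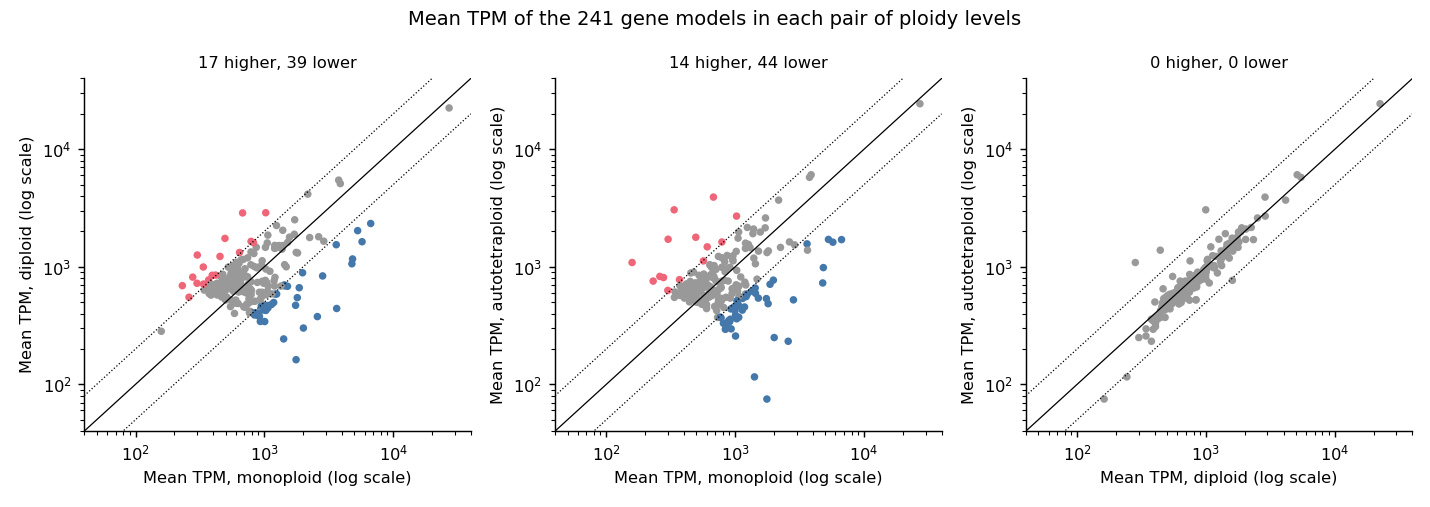
Mean TPM of each of the 241 members (log scales) in diploid against monoploid, autotetraploid against monoploid, and autotetraploid against diploid, with equality as a solid line and a change of 1 on the log2 scale as dotted lines. Called members are red (higher) or blue (lower): 17 and 39 in the first panel, 14 and 44 in the second, and 0 and 0 in the third, where nearly all points lie between the dotted lines.

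Among the members that fell, the deepest loss was that of BRA09G0031210, on A09 from 2160431 to 2161486. It had 2077, 1493 and 1716 TPM in monoploid, 159 and 165 TPM in diploid, and 69.9, 50.5 and 105 TPM in autotetraploid. The 3 groups did not overlap, and the autotetraploid libraries were the lowest. In limma the change was -3.42 ± 0.27 (SE) to the diploid, with an adjusted p of 7.8e-05, and -4.59 ± 0.24 (SE) to the autotetraploid, with an adjusted p of 4.0e-06. It was above 500 TPM in the monoploid alone, as were BRA03G0028539, BRA03G0026056 and BRA05G0046565, so these 4 entered the set through their monoploid level. Its highest group mean was 23.5 times its lowest. The further step from diploid to autotetraploid was -1.16, with an adjusted p of 0.45.

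BRA03G0028539, on A03 from 21528264 to 21529147, showed the same order at a lower level. It had 1510, 1357 and 1368 TPM in monoploid, 225 and 261 TPM in diploid, and 77.8, 91.3 and 178 TPM in autotetraploid. Again no groups overlapped, with autotetraploid replicate 3 nearest to the diploid. The limma changes were -2.53 (adjusted p = 0.00078) and -3.69 (adjusted p = 2.8e-05) against the monoploid.

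For BRA03G0026056, on A03 from 9178097 to 9178897, the levels were 2766, 2397 and 2573 TPM in monoploid, 335 and 419 TPM in diploid, and 183, 140 and 374 TPM in autotetraploid. Autotetraploid replicate 3 lay between the diploid libraries, so only the monoploid was separate. The limma changes against the monoploid were -2.78 (adjusted p = 0.00098) for diploid and -3.59 (adjusted p = 8.0e-05) for autotetraploid.

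BRA05G0046565, on A05 from 45283965 to 45287986, fell from 2012, 1908 and 2104 TPM in monoploid to 169 and 433 TPM in diploid and to 128, 105 and 517 TPM in autotetraploid. Diploid replicate 2 and autotetraploid replicate 3 were the highest libraries of their groups, with a highest-to-lowest ratio of 4.91 in autotetraploid. The change to the diploid was -2.89 (limma, adjusted p = 0.0092), which became -2.21 with an adjusted p of 0.089 without diploid replicate 1. The change to the autotetraploid was -3.39 (adjusted p = 0.0019).

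BRA01G0014989, on A01 from 42737779 to 42738840, did not follow the same order. It had 2010, 3059 and 5850 TPM in monoploid, 737 and 147 TPM in diploid, and 1330, 1187 and 1632 TPM in autotetraploid. The diploid was the lowest group and its libraries differed by 5.03 times, the widest spread of any member in that group. Its change to the diploid was -3.32 ± 0.62 (SE), with an adjusted p of 0.0055 in limma, and to the autotetraploid -1.27, with an adjusted p of 0.099. The latter p came to 0.026 without either diploid library, as the spread is shared across groups. The step from diploid to autotetraploid was 2.06, the largest rise of that comparison, with an adjusted p of 0.69.

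The largest difference in mean TPM from monoploid to diploid was that of BRA04G001209, at -4704 TPM, which was not called. Among the called members it was that of BRA04G002628, at -4353 TPM. BRA04G002628, on A04 from 26753348 to 26754151, had 7170, 6129 and 6761 TPM in monoploid, 1909 and 2759 TPM in diploid, and 1498, 1399 and 2209 TPM in autotetraploid. BRA04G001202, on the same chromosome from 17736726 to 17745564, had 5726, 4661 and 6799 TPM in monoploid, 1397 and 1870 TPM in diploid, and 1190, 1454 and 2211 TPM in autotetraploid. In both, the monoploid stood far above the rest, and diploid and autotetraploid overlapped. In limma their changes to the diploid were -1.54 (adjusted p = 0.0044) and -1.81 (adjusted p = 0.0036). With quantile normalization, the change of BRA04G002628 was -0.64, with an adjusted p of 0.16.

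BRA04G001614, on A04 from 20483624 to 20484412, fell from 5076, 4405 and 5020 TPM in monoploid to 864 and 1466 TPM in diploid and 692, 791 and 1468 TPM in autotetraploid. BRA07G005321, on A07 from 22879783 to 22880587, fell from 5035, 4047 and 5250 TPM to 781 and 1339 TPM and to 530, 499 and 1155 TPM. In each, diploid replicate 2 and autotetraploid replicate 3 were the highest of their groups but remained below every monoploid library. BRA09G0034460, on A09 from 54318479 to 54319282, had 5479, 4674 and 5728 TPM in monoploid, 1715 and 2343 TPM in diploid, and 2078, 1123 and 1925 TPM in autotetraploid. Here autotetraploid replicate 2 was the lowest library. Its change to the diploid was -1.40 (limma, adjusted p = 0.0092), and -1.17 with an adjusted p of 0.083 without diploid replicate 1. With quantile normalization that change was -0.58, with an adjusted p of 0.23.

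The 39 members called lower in diploid tended to move together within a group as well. Of these 39, monoploid replicate 2 was the lowest monoploid library in 37, diploid replicate 1 the lower diploid library in 36, and autotetraploid replicate 3 the highest autotetraploid library in 38. Among the 185 members that were not called, the corresponding counts were 96, 102 and 59. The same counts over all tested gene models, or over all those called lower, are not given here. They are therefore not read as a trait of the members. As a set, the 39 took 7.97, 6.82 and 8.25% of all TPM in monoploid, 2.16 and 2.94% in diploid, and 2.11, 1.82 and 3.02% in autotetraploid. The 39 were chosen by the call in these libraries, so the smaller share in diploid follows from the choice. The comparison with the autotetraploid uses the same monoploid libraries. Only 14 of the 39 were above 500 TPM at each level. The depth was 6.50 Gb in monoploid replicate 2, 5.86 Gb in diploid replicate 1 and 6.48 Gb in autotetraploid replicate 3. The lower share went with the lower depth in diploid and with the highest depth, 8.06 Gb, in autotetraploid, and the part of depth in this order was not tested. In the autotetraploid, 34 of the 39 were below and 5 above the diploid mean. The 39 lie on 9 chromosomes, 10 of them on A09 and 6 each on A04 and A06.

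Of the members called higher in diploid at a change of at least 1, BRA09G0032805 had the highest mean TPM over all libraries. On A09 from 12841007 to 12842096, it had 672, 855 and 507 TPM in monoploid, 2916 and 2826 TPM in diploid, and 5560, 3268 and 2913 TPM in autotetraploid. All monoploid libraries were below all others, and autotetraploid replicate 1 was the highest. The change was 2.11 ± 0.31 (SE) to the diploid, with an adjusted p of 0.0021 in limma, and 2.50 ± 0.28 (SE) to the autotetraploid, with an adjusted p of 0.00031. BRA05G0044787, on A05 from 33845775 to 33846905, rose from 296, 332 and 276 TPM in monoploid to 1485 and 1032 TPM in diploid and 1366, 1821 and 1957 TPM in autotetraploid. Its limma changes were 2.04 (adjusted p = 0.00051) and 2.49 (adjusted p = 5.0e-05). Its monoploid mean was below 500 TPM, as were those of BRA07G005822, BRA09G0031108 and BRA05G0046263, so these 4 entered the set through their diploid and autotetraploid levels.

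BRA07G005822, on A07 from 25583800 to 25584300, rose from 455, 548 and 480 TPM in monoploid to 1981 and 1506 TPM in diploid and 1739, 1989 and 1620 TPM in autotetraploid. The diploid and autotetraploid libraries overlapped and lay well above the monoploid. Its changes were 1.81 (limma, adjusted p = 0.00046) and 1.85 (adjusted p = 0.00012). BRA09G0031108, on A09 from 1670144 to 1671260, rose from 237, 265 and 191 TPM to 623 and 758 TPM and to 752, 830 and 685 TPM. Its monoploid libraries were again separate from the rest, with limma changes of 1.58 (adjusted p = 0.00076) and 1.71 (adjusted p = 0.00015).

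BRA06G0038137, on A06 from 47666354 to 47666906, had 965, 1204 and 904 TPM in monoploid, 3605 and 2159 TPM in diploid, and 2530, 3039 and 2524 TPM in autotetraploid. With BRA01G0018096 it was among the 5 largest gains of TPM in both comparisons. BRA05G0043040, on A05 from 3772139 to 3772763, had 2359, 2290 and 1870 TPM in monoploid, 4379 and 3916 TPM in diploid, and 3826, 3839 and 3401 TPM in autotetraploid. Its groups of monoploid and of the other libraries were separate, but its change of 0.94 to the diploid stayed under 1 on the log2 scale (limma, adjusted p = 0.011). Without monoploid replicate 1 it was 1.00, and without diploid replicate 2 it was 1.02, so that the call then changed.

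The members with the largest spread also included risers. BRA05G0046263, on A05 from 42431943 to 42432303, had 674, 126 and 208 TPM in monoploid, 1004 and 987 TPM in diploid, and 2790, 4917 and 1446 TPM in autotetraploid. The 3 groups did not overlap, but the monoploid and autotetraploid libraries each spread by more than 3 times. Its change to the diploid was 1.93, with an adjusted p of 0.0498 in limma, and that p ranged up to 0.18 among the alternatives, reached without diploid replicate 1. The p was 0.11 without monoploid replicate 2, 0.13 without monoploid replicate 3, 0.15 without diploid replicate 2 and 0.068 without autotetraploid replicate 1. To the autotetraploid the change was 3.37, with an adjusted p of 0.0027.

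BRA03G0028108, on A03 from 19141986 to 19143215, had 376, 41.5 and 57.7 TPM in monoploid, 310 and 256 TPM in diploid, and 1213, 1461 and 587 TPM in autotetraploid. Monoploid replicate 1 was above both diploid libraries, while the autotetraploid was above all others. It was the only member with a mean above 500 TPM in the autotetraploid alone. Its change to the autotetraploid was 3.37 (limma, adjusted p = 0.0061). The change to the diploid was 1.53 (adjusted p = 0.16), and 2.50 with an adjusted p of 0.0059 without monoploid replicate 1.

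BRA02G0022301 was higher in the diploid than at both other levels. This gene model, on A02 from 10050214 to 10052757, had 701, 572 and 1197 TPM in monoploid, 1465 and 1740 TPM in diploid, and 932, 813 and 555 TPM in autotetraploid. Both diploid libraries were above all others, and monoploid and autotetraploid overlapped. Its change to the diploid was 1.03, with an adjusted p of 0.038 in limma. That p was 0.098 without monoploid replicate 1, 0.082 without monoploid replicate 2, 0.12 without diploid replicate 1, 0.17 without diploid replicate 2 and 0.051 without autotetraploid replicate 2. The step from diploid to autotetraploid was -1.09 (adjusted p = 0.68).

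The 17 members called higher in diploid took 0.80, 0.82 and 0.82% of all TPM in monoploid, 2.24 and 2.06% in diploid, and 2.42, 2.58 and 1.96% in autotetraploid. Here too the larger share in diploid follows from the choice by call, and only 5 of the 17 were above 500 TPM at each level. Of these 17, diploid replicate 1 was the higher diploid library in 12, and autotetraploid replicate 3 the lowest autotetraploid library in 13. Monoploid replicate 2 was the highest monoploid library in 9 and the lowest in 6. These counts too are given without those of all tested gene models. Against the diploid mean, the autotetraploid mean was higher in 7 and lower in 10, and the median change between them was -0.01.

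The members had shorter spans than other gene models by the median. The rule did not use the span directly, but TPM is divided by transcript length, which leaves out the introns that the span includes. The median span from start to end, introns included, was 884 bases, beside 1163 in the next tier and 1742 over all tested gene models. A span of up to 1000 bases was found in 136 members (56.4%), beside 22.8% of all tested gene models. Among the members, the median span was 1012 bases for the 39 called lower in diploid, 669 for the 17 called higher and 882 for the 185 not called.

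Several members had identical spans, which was looked for after the values were seen. All 3 members with a span of 804 bases, BRA04G002628, BRA09G0034460 and BRA08G009037, on 3 chromosomes, were called lower in diploid and in autotetraploid. Beside these, 5.36 and 6.01% of all tested gene models were called lower. Members of 805 bases differed from each other. BRA07G005321 was called lower in both, with changes of -2.21 and -2.82, while BRA04G001209 was called in neither, with changes of -0.26 and -0.14. BRA08G009037 had 2087, 1865 and 1984 TPM in monoploid, 758 and 1020 TPM in diploid, and 802, 539 and 969 TPM in autotetraploid. There were 31 gene models of 804 bases, 21 of them tested, and how many of the 21 were called is not given here. The 5 members with a span of 441 bases, BRA09G0034945, BRA03G0025081, BRA09G0035080, BRA07G004792 and BRA01G0016992, had positive changes to the diploid, from 0.33 to 0.92, none of them reaching 1. An adjusted p of at most 0.05 in limma was found for 4 of the 5, beside 24.3% of all tested gene models that were higher by this measure. BRA03G0025081 was the most separate of these, with 515, 518 and 538 TPM in monoploid, 1000 and 987 TPM in diploid, and 881, 915 and 743 TPM in autotetraploid. Equal span did not go with 1 direction in the other sets. The 3 members of 801 bases had changes from -2.78 to 0.42, with 2 of them positive, and the 3 of 884 bases had changes from -2.53 to 0.85, with 1 positive. Whether gene models of equal span are copies of each other was not tested, as no sequence was used, and reads shared between near-identical copies could be split by the authors' quantification.

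By position, the members were spread over all 10 chromosomes and rarely side by side. A09 held 49 members (20.3%), beside 14.5% of the tested gene models, and A04 held 23 (9.54%), beside 6.68%. Only 2 pairs of members were neighbours in the tables. One was BRA06G0039975 with 604, 652 and 738 TPM in monoploid, 701 and 980 TPM in diploid, and 905, 713 and 964 TPM in autotetraploid. Its neighbour BRA06G0039974 was higher, at 1409, 1654 and 1637 TPM in monoploid, 1760 and 1814 TPM in diploid, and 1855, 1872 and 2197 TPM in autotetraploid. Neither was called in any comparison. The other pair was BRA08G0011344 and BRA08G0011343. One member, BRA03G0026723, overlapped a second gene model on the opposite strand, which had a mean of only 0.698 TPM.

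The members on 5 chromosomes, A04, A06, A07, A08 and A09, took a smaller mean share in diploid and in autotetraploid than in monoploid, and those on the other 5 a larger one. The 23 members on A04 took 6.51, 5.07 and 6.43% of all TPM in monoploid, 3.80 and 4.48% in diploid, and 3.59, 4.31 and 4.60% in autotetraploid. Every monoploid library was above all others there. The 5 largest losses of mean TPM to the diploid on A04 were -4704 for BRA04G001209, -4353 for BRA04G002628, -4095 for BRA04G001202, -3669 for BRA04G001614 and -2071 for BRA04G002984. The difference of all 23 was -1.87 percentage points, so it came largely from these 5. On A04, 6 of the 23 members were called lower in diploid and 1 higher. The share called among all tested gene models on A04 is not given here. The 49 members on A09 took 5.31, 4.77 and 5.19% in monoploid, 4.10 and 4.35% in diploid, and 4.85, 3.73 and 3.93% in autotetraploid, where autotetraploid replicate 1 overlapped the monoploid. On A08 the difference from the monoploid was -0.41 percentage points in diploid and -0.58 in autotetraploid, on A07 it was -0.23 and -0.42, and on A06 -0.13 and -0.22. On these 3 chromosomes every monoploid library was above all others. The members on A03 went the opposite way, from 2.19% ± 0.06 (SD, n = 3) in monoploid to 2.59% ± 0.17 (SD, n = 2) in diploid and 2.59% ± 0.08 (SD, n = 3) in autotetraploid. With all gene models on A02, A04 and A09 left out of members and total, the difference in share was 0.17 percentage points for diploid and 0.0573 percentage points for autotetraploid against monoploid. Leaving these chromosomes out also removed several of the largest losses, among them those 5 on A04. On A02 itself the difference was 0.07 percentage points in diploid.

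**Figure D5:**
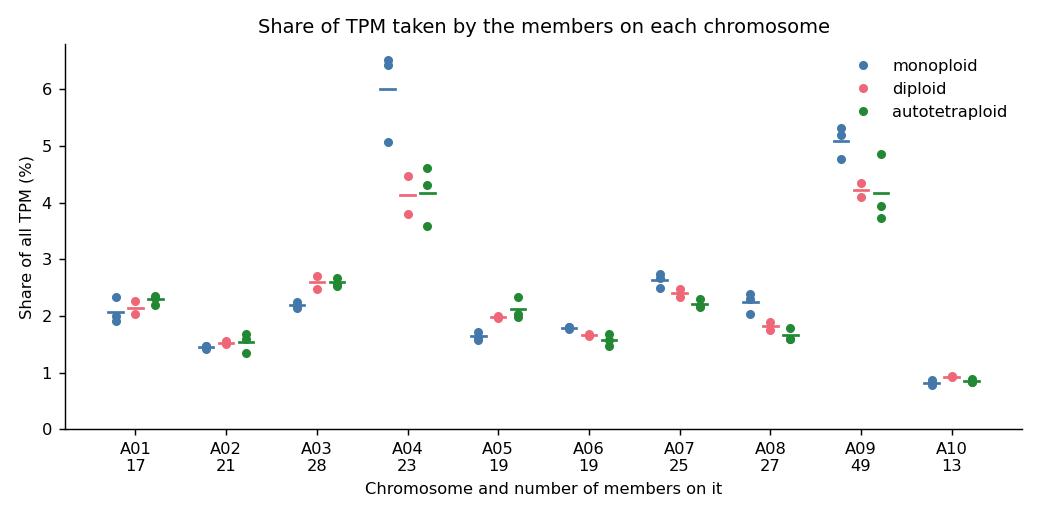
Share of all TPM, in percent, taken by the members on each of the 10 chromosomes, with 1 point per library, a line at each group mean, and the number of members under each chromosome name. Members on A04 take 6.01% in monoploid, 4.14% in diploid and 4.17% in autotetraploid, and on A09 autotetraploid replicate 1, at 4.85%, stands above the other autotetraploid libraries.

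Single autotetraploid libraries stood apart by chromosome. Relative to the diploid mean, the median log2 difference of members on A09 was above that of the other members by 0.28 in autotetraploid replicate 1, and that of members on A02 by 0.26 in replicate 1 and 0.25 in replicate 3. On A04 the corresponding value was 0.25 in replicate 2. Of the 15 members that were more than 1.5 times lower in autotetraploid replicate 2 than in both other autotetraploid libraries, 11 lie on A09 and 4 on A02. With each chromosome of each library centred, 8 members were called higher and 50 lower in diploid than in monoploid, beside 17 and 39 without centring. Centring also took the median change of all tested gene models from 0.25 to -0.03. Median-ratio rescaling, which has no step by chromosome, gave the same 8 and 50. The part of single chromosomes in these counts was thus not separated, and the share of all tested gene models called after centring is not given here.

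Between the 2 groups with 3 libraries each, the replicates of the members varied more in autotetraploid by the median ratio of highest to lowest library. This ratio was 1.23 in monoploid and 1.34 in autotetraploid. In diploid it was 1.16, but there it rests on 2 libraries. A ratio of highest to lowest tends to grow with the number of libraries, so the diploid is not ranked against the others. A ratio above 2 was found in 13 members in monoploid, 3 in diploid and 16 in autotetraploid. Monoploid replicate 2 was more than 1.5 times above both other monoploid libraries in 14 members and below both in 7. Autotetraploid replicate 3 was above both others of its group by more than 1.5 times in 12 members, and all 12 were among the 39 called lower in diploid. Whether gene models outside the members that were called lower did the same is not given here. In BRA09G0032502, on A09 from 10442603 to 10443431, the monoploid values were 347, 2680 and 570 TPM, the diploid values 753 and 618 TPM, and the autotetraploid values 242, 932 and 584 TPM. Replicate 2 was the highest library in both monoploid and autotetraploid, and no 2 groups were separate.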

How the data were processed

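RNA-seq of young leaves was used, from 3 monoploid, 2 diploid and 3 autotetraploid libraries; the 30 chromatin samples of the series were not analysed here. Reads were trimmed by the authors with fastp, aligned with HISAT2 and quantified with StringTie. The submitters' processing notes list fastp 0.21.0, HISAT2 2.2.1 and StringTie 1.3.5, and the genome assembly and annotation are not given in the sources used here. The deposited TPM values have 1 common sum over all libraries. FPKM and coverage, as deposited, were used only for the depth, 5.86 to 8.06 Gb of aligned bases, as their ratio is constant within a library. No counts per gene were used, so no counting interval is given and precision rests on the replicates. The table of monoploid replicate 1 also holds 3 columns (replicates 2 and 3 and the mean of 3), which were left out.

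The filter required 1 TPM or more in 2 or more libraries. On log2(TPM + 1), a pseudocount that understates changes of low genes, 1 linear model over the 3 ploidy levels was fitted with limma 3.58.1 in R 4.3.3, with eBayes with trend and Benjamini-Hochberg adjustment over all 25652 gene models kept. Calls required both an adjusted p not above 0.05 and a log2 fold change not below 1 in size. The fit was run on simulated data with planted changes and independent noise for each gene model. That setting does not cover members that move together by library, and nothing is concluded from it here. Shares, ranks and spans were computed with pandas 2.3.3 and numpy 2.4.6, and figures drawn with matplotlib 3.10.9. Members, lists and tests were chosen with earlier results of these data known.

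Gene models were named if they were among the 10 of highest mean, the 5 largest called rises and falls or TPM gains and losses against monoploid, the 3 largest rises and falls between diploid and autotetraploid, the longest run of neighbours, the 2 on each side of the threshold, or the member above 500 TPM in only 1 or 2 groups with the highest ratio of group means. The pairs and sets of equal span, BRA09G0032502 and BRA03G0026723 were named after their values were seen. Alternatives covered pseudocount, filter, scaling, threshold, variance prior, replicate block, samples in the fit, the set of members and each library left out in turn.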

Additional observations from a re-analysis of the deposited data

How the results depend on the processing

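No fold change of a named gene model that was called changed sign under any alternative run. Counts of members called higher in diploid than monoploid, 17 as reported, were 8 with median-ratio rescaling, 8 with centring by chromosome, 8 with TPM rescaled outside the members and the A06 stretch (added after seeing the data) and 26 with quantile normalization. The last 4 settings gave 50, 50, 43 and 29 lower, beside 39. Shares of all tested gene models called under these and the other alternative fits are not given here. Without single libraries, the counts were 13 to 17 higher and 13 to 43 lower for diploid, 11 to 17 higher and 36 to 48 lower for autotetraploid against monoploid, and 0 to 1 lower for autotetraploid against diploid. The lowest count of 13 lower came without diploid replicate 1, and the group was then 1 library, assumed to vary like the others. With the members limited to a mean above 1000 TPM, 51 remained, of which 6 (11.8%) were higher and 11 (21.6%) lower in diploid, and 7 (13.7%) higher and 10 (19.6%) lower in autotetraploid. Limited to those above 500 TPM in each group (added after seeing the data), 5 were higher and 14 lower in diploid, and 5 higher and 17 lower in autotetraploid. Of all tested gene models, 4.87% were called higher and 5.36% lower in diploid, and 5.56 and 6.01% in autotetraploid.

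The share of the members, diploid minus monoploid, was -2.51 percentage points as reported, -6.82 with the A06 stretch not left out, -4.09 of the TPM outside it, and 0.17 without A02, A04 and A09. For autotetraploid minus monoploid it was -2.77, and -5.10 with the stretch, -1.32 for means above 1000 TPM and 0.0573 without the 3 chromosomes. For autotetraploid minus diploid it was -0.26, and 1.72 with the stretch, 0.52 for means above 1000 TPM and 0.32 outside the stretch. That last difference ranged from -0.91 to 0.38 without single libraries, and the first 2 from -3.35 to -1.86 and from -3.62 to -2.31. Leaving out A02, A04 and A09, which hold several of the largest losses, gave small positive values, opposite in sign to the reported ones. The cause of these shifts was not tested.

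The correlation of deviations between same-numbered libraries was weak. It was 0.22, 0.18 and 0.08 for monoploid and autotetraploid, -0.04 and -0.08 for monoploid and diploid, and 0.03 and -0.22 for diploid and autotetraploid. Differently numbered libraries gave -0.188 to -0.015 for monoploid and autotetraploid, but up to 0.268 for diploid and autotetraploid. Whether replicate numbers pair the samples was not tested. With the replicate block, 14 members were higher and 32 lower in diploid, 14 higher and 44 lower in autotetraploid against monoploid, and 0 and 0 between diploid and autotetraploid. Of 1560 values of the 26 named gene models under alternatives, 1513 kept their call, 34 lost it and 13 gained it, and most losses were those of BRA05G0046263 and BRA02G0022301 in diploid against monoploid. Depth limits no member directly, as all lie far above the filter, but with 2 diploid libraries the spread of that group rests on a single difference.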
